A study of Mus musculus with 12 samples.

Results

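The proteasome genes of mouse liver are described here across 4 groups: the subunits of the core and regulatory particles, the activators that cap the core, and the immune subunits that replace constitutive ones. Members were all protein-coding genes of the deposited count table whose mouse symbol begins with Psma, Psmb, Psmc, Psmd or Psme and a digit. This rule was met by 45 of the 28036 genes, after 2 pseudogenes (Psmb6-ps2 and Psmb7-ps2) were left out. The 5 immune members are Psmb8, Psmb9, Psmb10, Psme1 and Psme2, and 40 are not immune. Of these 40, Psmc3ip and Psme3ip1 carry the prefix only because their proteins bind a proteasome protein, and they are given apart. Enough counts for a test were present for 43 members: the 5 immune ones, 37 constitutive ones and Psme3ip1. The other 2, Psmc3ip and Psme2b, had too few counts.

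Liver RNA came from C57BL/6J mice, an inbred strain, with 12 libraries and 3 in each group, and messenger RNA was read after selection by its poly(A) tail. Controls ate normal chow and received the vehicle, 0.5% CMC-Na, by mouth. MASH mice were a high-fat diet model of metabolic dysfunction-associated steatohepatitis, a fatty liver disease with inflammation, and received the same vehicle. EE mice had the same model and were given Eleutheroside E, a lignan glycoside of plants, by mouth at 100 mg/kg, and resmetirom mice had the model and resmetirom, an agonist of the thyroid hormone receptor beta, by mouth at 3 mg/kg. The model ran for 8 weeks before dosing and dosing for 4 weeks, so that livers were taken at 12 weeks, and the controls had neither the diet nor a drug. A library is named by its group and replicate number (MASH 1). The labels number the samples of a group but do not say whether each is a separate animal, so p-values measure the spread between these 12 samples, which may be technical.

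The proteasome is the cell's main machine for breaking down ubiquitin-tagged proteins. Its core particle is a stack of rings of alpha (Psma) and beta (Psmb) subunits, and Psmb5, Psmb6 and Psmb7 carry the catalytic sites. The regulatory particle, made of ATPases (Psmc) and non-ATPases (Psmd), binds tagged proteins, removes the tag and threads them into the core. Interferon gamma induces Psmb8, Psmb9 and Psmb10, which take the places of Psmb5, Psmb6 and Psmb7 in newly built cores, and the activator ring of Psme1 and Psme2; cores of this kind yield peptides that fit MHC class I molecules. In liver, hepatocytes hold mostly constitutive cores, while immune cells are rich in immune cores.

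Promoter windows of RefSeq (GRCm38.p6, from 250 bases before to 50 after the annotated start) are shown for 4 members on which the results below turn: the immune subunits Psmb8 and Psmb9, the activator Psme1 and the ATPase Psmc6. Capitals mark matches on either strand to 3 motifs: the interferon-stimulated response element (GAAA, any 2 bases, GAAA), the gamma-activated site bound by STAT proteins (TTCNNNGAA) and the antioxidant response element (TGACNNNGC), which the proteasome regulators Nfe2l1 and Nfe2l2 bind. None of the capitals overlap another motif. The windows lie at chr17:34197945-34198244 (plus strand), chr17:34187281-34187580 (minus), chr14:55578244-55578543 (plus) and chr14:45329574-45329873 (plus), each printed 5′ to 3′ on the gene's strand.
Psmb8: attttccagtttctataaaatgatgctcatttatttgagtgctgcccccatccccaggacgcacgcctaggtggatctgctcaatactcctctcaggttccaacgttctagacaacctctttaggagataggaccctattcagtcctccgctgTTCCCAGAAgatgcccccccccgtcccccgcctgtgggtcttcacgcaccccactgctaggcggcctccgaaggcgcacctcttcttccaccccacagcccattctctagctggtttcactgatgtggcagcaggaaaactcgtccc
Psmb9: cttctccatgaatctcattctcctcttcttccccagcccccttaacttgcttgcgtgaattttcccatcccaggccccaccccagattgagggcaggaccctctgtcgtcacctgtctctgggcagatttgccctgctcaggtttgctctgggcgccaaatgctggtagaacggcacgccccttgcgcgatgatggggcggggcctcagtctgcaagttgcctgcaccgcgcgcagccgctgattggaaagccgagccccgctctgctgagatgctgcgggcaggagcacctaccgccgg
Psme1: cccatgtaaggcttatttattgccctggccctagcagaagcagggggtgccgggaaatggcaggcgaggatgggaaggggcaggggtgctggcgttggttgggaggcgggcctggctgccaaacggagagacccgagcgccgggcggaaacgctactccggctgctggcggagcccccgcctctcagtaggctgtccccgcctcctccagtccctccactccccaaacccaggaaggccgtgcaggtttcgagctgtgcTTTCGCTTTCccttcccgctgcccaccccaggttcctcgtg
Psmc6: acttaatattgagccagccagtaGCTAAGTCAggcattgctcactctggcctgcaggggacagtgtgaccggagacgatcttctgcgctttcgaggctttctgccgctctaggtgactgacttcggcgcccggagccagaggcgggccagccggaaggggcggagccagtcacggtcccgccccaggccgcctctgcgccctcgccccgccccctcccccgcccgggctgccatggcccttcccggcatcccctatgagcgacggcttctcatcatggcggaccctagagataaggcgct

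A window was matched for 38 of the 45 members (the first listed where a gene has several). The gamma-activated site matched in 2 of 38, Psmb8 (bases −97 to −89 from the start) and Psmd2, against 8.3% of all 32851 windows. The interferon-stimulated element matched in 4 of 38, Psmb3, Psmd4, Psmd9 and, among the 5 immune members, Psme1 (bases 10 to 19 after the start), against 3.44% of all windows. The antioxidant element matched in 6 of 38, against 12.4% of all windows: Psmb5, Psmb6, Psmc6, Psmd9, Psmd12 and Psme4, none of them immune. The window of Psmb9 holds no match. It runs head to head with Tap1, a peptide transporter for MHC class I: the annotated start sites of Psmb9 (chromosome 17, position 34187330, minus strand) and Tap1 (position 34187556, plus strand) lie 226 bases apart, and their windows overlap by 275 bases. Psmb8 starts 10865 bases beyond Psmb9, and Psme1 and Psme2 start 12607 bases apart on chromosome 14.

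Library totals ran from 17297865 to 21793326 counts, and a level is a gene's CPM, its count relative to the library total after TMM scaling in edgeR (1 CPM stood for 9.95 to 26 counts). Control 1 and resmetirom 2, the libraries with the lowest scaling factors, are treated below as the outlying ones. Control 1 held 35.4% mitochondrially encoded counts (2.40% to 4.38% in the other 11) and correlated with the other controls at 0.892 and 0.893 across genes, against 0.984 between controls 2 and 3. Resmetirom 2 had the next lowest scaling factor (0.663, after 0.508 in control 1; 0.960 to 1.41 elsewhere). The resmetirom libraries correlated at 0.903 (1 and 2), 0.945 (1 and 3) and 0.948 (2 and 3). By this measure resmetirom 1 was as far from resmetirom 3 as resmetirom 2 was, and it had the highest scaling factor (1.41). Leaving out resmetirom 2 therefore does not leave 2 closely alike libraries. The 7 hepatocyte markers summed to 86210 to 158700 CPM in controls, 75050 to 90390 in MASH, 101900 to 108400 in EE and 55310 to 91470 in resmetirom. Because the tissue is bulk liver, fewer cells of a type and less RNA per cell cannot be told apart.

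Members were uneven in the outlying libraries. Measured from its MASH mean on the log2 scale, the tested members of control 1 ran from −3.10 (Psmd13) to 2.02 (Psmb3), and their shift was lower for longer transcripts (Pearson −0.47 over 43 members). In resmetirom 2 they ran from −0.77 (Psmd5) to 1.47 (Psmb10), with a correlation of −0.59. The EE libraries had −0.42, −0.42 and −0.33, the other resmetirom libraries −0.08 and −0.26 and controls 2 and 3 0.11 and 0.15. Over all genes with a known length the correlation was −0.28 in control 1, −0.40 in resmetirom 2 and −0.25, −0.20 and −0.20 in EE. With the GC content of the transcript the shift correlated at 0.66, 0.67 and 0.73 in EE 1, 2 and 3 and at 0.64, 0.63 and 0.82 in the resmetirom libraries, against −0.12 and −0.27 in controls 2 and 3. MASH 3 reached 0.75, MASH 1 and 2 −0.25 and −0.56, though these 3 make up the mean they are measured from. The members share libraries, so these correlations describe single libraries and carry no test.

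**Figure D1:**
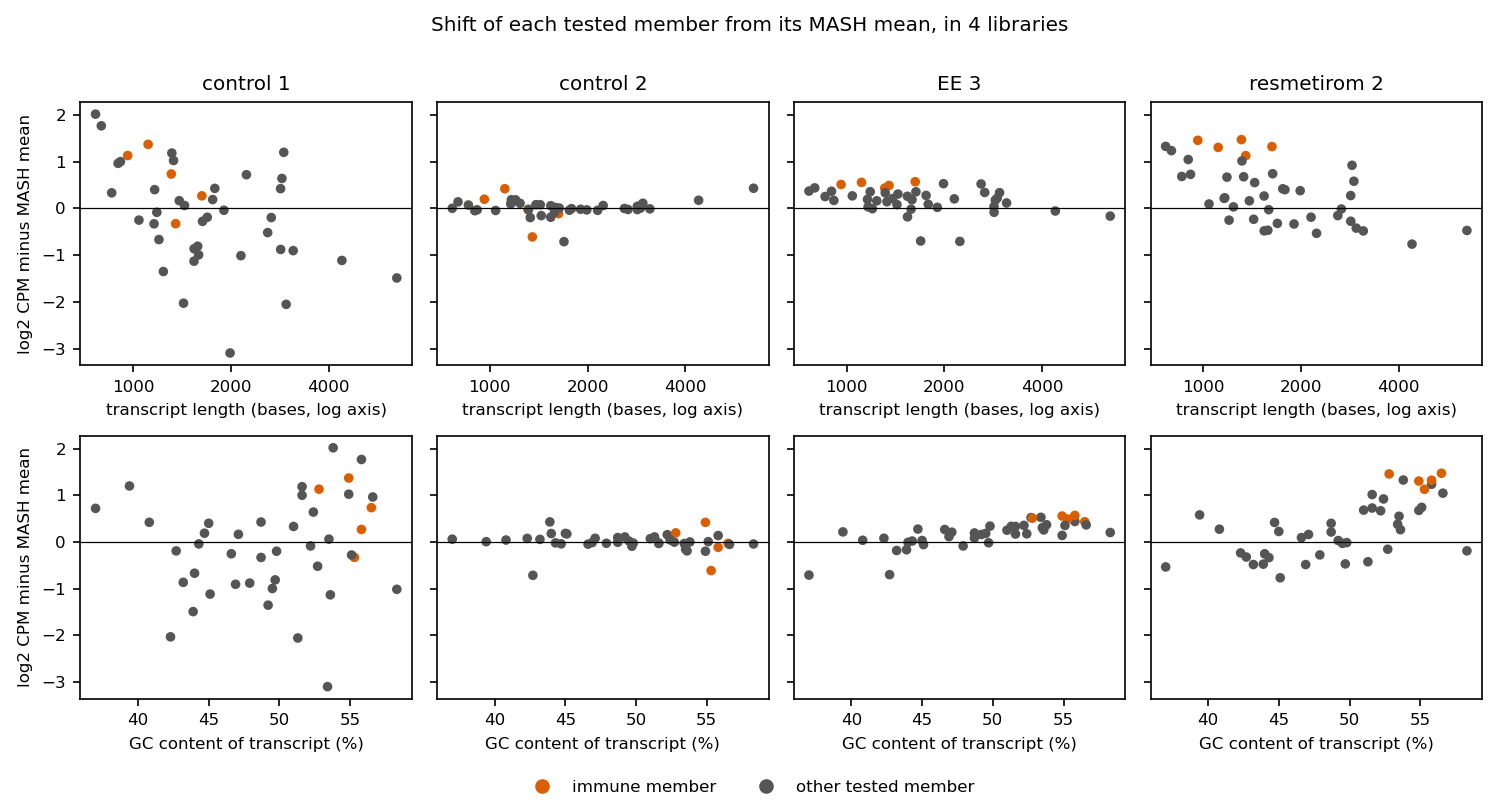
Shift of each of the 43 tested members from its MASH mean (log2 CPM, y axis) against transcript length (upper panels, log axis) and GC content (lower panels) in control 1, control 2, EE 3 and resmetirom 2. Control 1 spans −3.10 to 2.02 and resmetirom 2 −0.77 to 1.47, with the immune members (orange) among the highest of resmetirom 2, while control 2 stays between −0.71 and 0.43.

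Within a group the members varied little once these libraries were set aside. The median coefficient of variation over the 43 members was 6.05% in MASH and 5.36% in EE, against 13.1% and 14.5% over all tested genes. It was 31.5% in controls and 3.55% without control 1, and 23.1% in resmetirom and 8.50% without resmetirom 2. In MASH, Psma7, an alpha ring subunit, read 69.2, 69.7 and 69.3 CPM, the tightest of all members, while Psma8, the testis form of an alpha subunit, read 0.520, 1.42 and 0.820 CPM, the loosest.

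Levels between members are compared per kilobase of transcript. In MASH livers the constitutive beta ring stood at 46.6 (Psmb2) to 99.5 (Psmb7) CPM per kb, and the alpha ring without Psma8 at 19.6 (Psma2) to 83.2 (Psma6). The regulatory ATPases stood at 22.5 (Psmc6) to 55.2 (Psmc3) and the non-ATPases at 25.4 (Psmd14, the deubiquitinase of the lid) to 65.0 (Psmd8). The immune catalytic subunits were lower per kb: 12.4 for Psmb9, 14.4 for Psmb8 and 16.5 for Psmb10. The activators Psme1 and Psme2 stood at 47.9 and 59.9, near the core subunits. The chaperones of regulatory particle assembly (Psmd5, Psmd9 and Psmd10) were at 5.72 to 11.4, and Psma8 at 0.544.

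No member passed edgeR's quasi-likelihood test at an adjusted p below 0.05 in any of the 6 comparisons. The share of all 13988 tested genes that passed was 0.0143% for MASH against control, 0.00715% for EE against MASH, 0.665% for resmetirom against MASH, 0.1% for EE against control, 3.16% for resmetirom against control and 0.307% for EE against resmetirom. At an unadjusted p below 0.05 the members counted, in the same order, 1, 0, 5, 4, 6 and 2 of 43, against 9.23%, 7.49%, 15%, 16.1%, 22.9% and 11.8% of all genes, so none of these counts stood above the background. DESeq2 called 0, 0, 0, 1, 4 and 0 members (4.41% of all genes for EE against control and 11.1% for resmetirom against control) and limma voom 0 in all 6, with 0 to 7 members at an unadjusted p below 0.05 by either tool. Voom with quality weights, which give less weight to deviant libraries and were added after seeing the data, called 1, 3, 4, 7, 7 and 0, against 3.92%, 9.09%, 5.78%, 18.3% and 15.1% of all genes in the first 5. Psmb9 was its call in MASH against control, Psmb8, Psme1 and Psmc6 in EE against MASH, and Psmb8, Psmb10, Psmc6 and Psmd14 in resmetirom against MASH. The comparisons share groups: 3 use the same controls and 3 the same MASH livers, so their values are not independent.

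Psmb8, the immune counterpart of the chymotrypsin-like subunit Psmb5, read 28.2, 21.6 and 17.6 CPM in controls 1, 2 and 3, 21.8, 21.7 and 27.0 in MASH, 28.7, 32.0 and 34.9 in EE and 31.7, 59.2 and 34.5 in resmetirom. Every EE and every resmetirom library lay above every control and MASH library, while MASH and control libraries overlapped. The log2 fold change was 0.90 ± 0.26 SE for resmetirom against control (edgeR adjusted p = 0.0742), 0.83 ± 0.26 against MASH (0.162), and 0.51 ± 0.26 and 0.44 ± 0.26 for EE against control and MASH (0.349 and 0.757). With control 1 and resmetirom 2 left out, Psmb8 passed against control in both treated groups: 0.77 in resmetirom (adjusted p = 0.0267) and 0.70 in EE (0.0329), where 7.46% and 4.15% of all genes passed. DESeq2 also called it for resmetirom against control (0.0277), as did edgeR without control 1 alone (adjusted p = 0.0429, where 4.78% of all genes passed). With offsets for length and GC content it did not pass against control: resmetirom was at 0.59 (adjusted p = 0.11) and EE at 0.40 (0.339).

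Psmb9, the counterpart of the caspase-like subunit Psmb6, read 12.9, 10.5 and 6.85 CPM in controls, 11.6, 17.9 and 20.7 in MASH, 18.9, 22.6 and 23.1 in EE and 17.4, 36.2 and 20.4 in resmetirom. All EE and resmetirom libraries exceeded all controls, and of the MASH libraries only MASH 1 fell within the control range. Of the immune members it had the highest fold changes against control: 1.29 ± 0.32 SE in resmetirom (edgeR adjusted p = 0.0514), 1.11 ± 0.32 in EE (0.155) and 0.74 ± 0.32 in MASH (0.533). Without control 1 and resmetirom 2 the treated groups passed, at 1.13 (0.0387) and 1.31 (0.0282), and with no filter on low counts too (0.00298 and 0.0265, where 1.92% and 0.419% of genes passed). Resmetirom against control passed as well without control 1 alone (0.0394) and without resmetirom 1 alone (0.0406, where 3.25% passed). Of 28 alternatives, resmetirom against control passed in 6 and EE against control in 3. With offsets for length and GC content neither passed. Among the diet groups EE against MASH was 0.36 ± 0.32 (0.831) and resmetirom against MASH 0.55 ± 0.32 (0.431).

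Tap1, which starts 226 bases from Psmb9 on the other strand, read 13.6, 16.8 and 14.9 CPM in controls, 24.4, 23.9 and 35.7 in MASH, 31.5, 32.5 and 32.4 in EE and 33.5, 27.8 and 31.0 in resmetirom. All 9 libraries of the diet groups lay above all 3 controls. It rose in resmetirom against control (1.03 ± 0.19 SE; edgeR adjusted p = 0.0207) and did not pass in EE against control (1.09 ± 0.19, 0.0656) or MASH against control (0.89 ± 0.19, 0.242).

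Psmb10, the counterpart of the trypsin-like subunit Psmb7, read 36.0, 21.0 and 18.9 CPM in controls, 18.4, 19.9 and 26.7 in MASH, 25.1, 30.4 and 29.1 in EE and 30.3, 60.2 and 36.1 in resmetirom. Each resmetirom library lay above each MASH library, and control 1 was close to resmetirom 3. The log2 fold change for resmetirom was 0.96 ± 0.30 SE against MASH (edgeR adjusted p = 0.168) and 0.74 ± 0.30 against control (0.168). Against control it passed with both outlying libraries left out (0.74; 0.0406); against MASH it was then 0.61 and did not pass (0.0707). EE against MASH was 0.38 ± 0.30 (0.816), with overlap. It passed with the replicate number as a block in the EE and MASH libraries alone (0.04, where 20.7% of all genes passed), a pairing that the labels do not give.

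**Figure D2:**
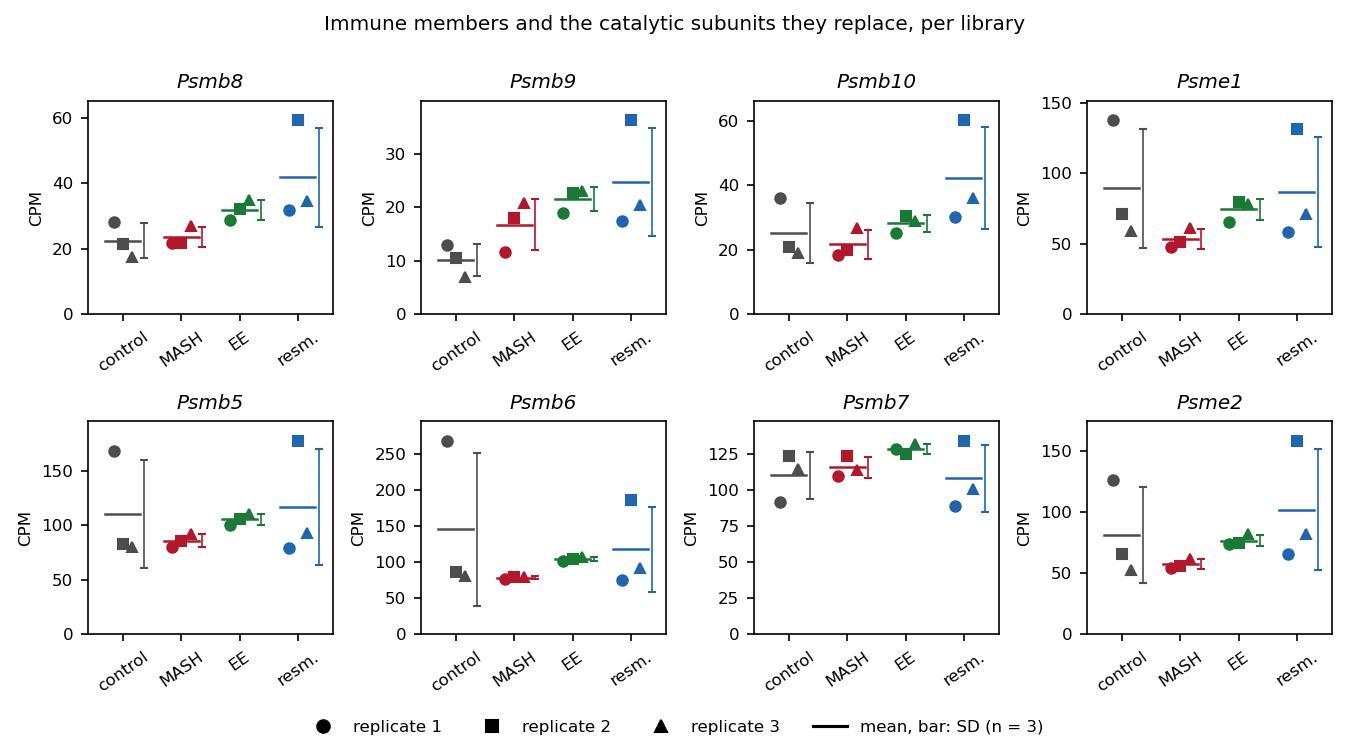
CPM (y axis, from 0) in each of the 12 libraries for the 5 immune members and for Psmb5, Psmb6 and Psmb7, the catalytic subunits they replace; lines are group means, bars SD over n = 3. Psmb8 stood above the control and MASH libraries in all EE and resmetirom libraries, and resmetirom 2 was the highest library for Psmb8, Psmb9, Psmb10, Psme2, Psmb5 and Psmb7.

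The catalytic subunits that these replace had higher levels per kb in every group. Psmb5 read 168, 83.0 and 80.5 CPM in controls, 80.5, 85.3 and 92.2 in MASH, 100.1, 106 and 111 in EE and 79.2, 178 and 93.1 in resmetirom. Psmb6 read 268, 86.4 and 80.9, 76.3, 79.0 and 80.0, 102, 105 and 106 and 75.2, 185 and 92.1 in the same order, and Psmb7 91.7, 123 and 115, 109.5, 123 and 114, 128, 125 and 132 and 88.9, 134 and 100.4. For Psmb5 and Psmb6, control 1 and resmetirom 2 were far above their groups, and for all 3 genes every EE library was above every MASH library. EE against MASH was 0.41 ± 0.44 SE for Psmb6 (edgeR adjusted p = 0.867), 0.30 ± 0.33 for Psmb5 (0.875) and 0.15 ± 0.20 for Psmb7 (0.892). With the replicate number as a block in the EE and MASH libraries alone, Psmb6 and Psmb5 passed (adjusted p = 0.00705 and 0.0218) and Psmb7 did not (0.198). Without scaling factors these were 0.11, −0.01 and −0.15, so the sign flipped for Psmb5 and Psmb7. The sign of Psmb6 and Psmb5 in EE against control flipped with control 1 and resmetirom 2 left out, from −0.48 and −0.06 to 0.31 and 0.37.

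The ratio of an immune subunit to the one it replaces, per kb and within a library, does not depend on how libraries are scaled. For Psmb8 to Psmb5 the log2 ratio was −3.43, −2.80 and −3.05 in controls, −2.74, −2.83 and −2.63 in MASH, −2.66, −2.58 and −2.52 in EE and −2.18, −2.44 and −2.29 in resmetirom. The 3 resmetirom ratios lay above all 9 others, and the EE ratios above the controls, while EE and MASH overlapped, as did MASH and controls. As a share, the Psmb8 level was 14.9%, 14.0% and 16.2% of the Psmb5 level in MASH 1, 2 and 3 and 22.1%, 18.4% and 20.5% in resmetirom 1, 2 and 3.

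For Psmb9 to Psmb6 the log2 ratio was −5.14, −3.80 and −4.32 in controls, −3.48, −2.90 and −2.71 in MASH, −3.18, −2.97 and −2.96 in EE and −2.87, −3.12 and −2.94 in resmetirom. All diet groups lay above the controls without overlap, by 1.39, 1.38 and 1.44 on average for MASH, EE and resmetirom, and they overlapped each other. Control 1 enlarged these gaps: without it the control mean was −4.06 in place of −4.42. For Psmb10 to Psmb7 it was −1.52, −2.73 and −2.77 in controls, −2.74, −2.81 and −2.27 in MASH, −2.53, −2.21 and −2.36 in EE and −1.73, −1.33 and −1.65 in resmetirom. Resmetirom lay above MASH and EE without overlap, by 1.04 against MASH, and overlapped the controls through control 1 alone. The partners of a pair differ in length and GC content. Psmb8 has 1628 bases and 55.8% GC, and Psmb5 899 and 56.6%. Psmb9 has 1352 bases and 55.3%, and Psmb6 798 and 55.8%. Psmb10 has 1311 bases and 56.5%, and Psmb7 1160 and 48.7%. Beyond the division by length, none of the ratios was adjusted for that.

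**Figure D3:**
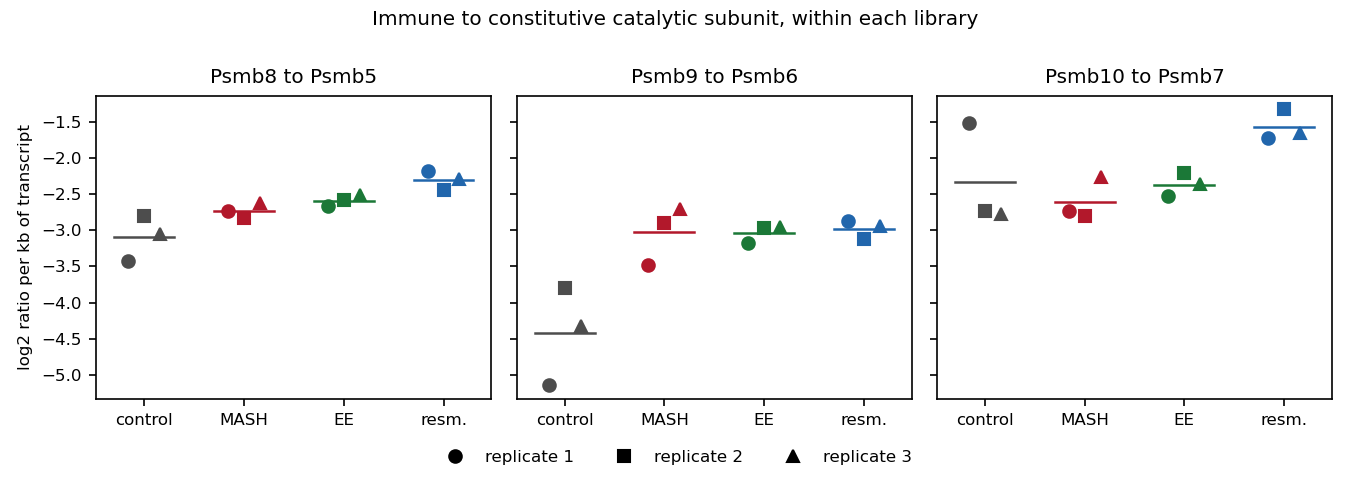
Log2 ratio per kb of transcript of each immune catalytic subunit to the constitutive subunit it replaces, in each library (y axis), with the group mean as a line. Psmb8 to Psmb5 and Psmb10 to Psmb7 were highest in resmetirom (means −2.30 and −1.57, the latter overlapping control 1). Psmb9 to Psmb6 was lowest in the controls (mean −4.42, and −4.06 without control 1).

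Psme1, a subunit of the activator ring, read 138, 71.0 and 59.1 CPM in controls, 47.4, 51.2 and 61.0 in MASH, 65.8, 79.5 and 78.0 in EE and 58.2, 132 and 71.2 in resmetirom. Its partner Psme2 read 127, 66.0 and 52.7, 54.6, 56.3 and 62.0, 73.8, 75.0 and 82.2 and 65.9, 159 and 82.0. Control 1 and resmetirom 2 were the highest libraries for both, and all EE libraries lay above all MASH libraries. For resmetirom against MASH Psme2 was at 0.83 ± 0.35 SE (edgeR adjusted p = 0.303) and Psme1 at 0.71 ± 0.35 (0.361), and without the outlying libraries at 0.36 and 0.28. For EE against MASH they were at 0.42 ± 0.35 (0.829) and 0.48 ± 0.35 (0.805). Against control the sign of Psme1 flipped between settings in both treated groups, from −0.26 to 0.19 in EE with both libraries left out. Psme2b, a near-identical copy of Psme2, had 5 to 20 counts summed over a group, and reads of the 2 genes may have been split between them.

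Of the activators that interferon does not induce, Psme4, a nuclear cap of the core, read 28.3, 109 and 106 CPM in controls, 83.1, 89.3 and 70.3 in MASH, 70.3, 70.7 and 71.7 in EE and 79.0, 57.8 and 69.3 in resmetirom. Controls 2 and 3 were the highest libraries and control 1 the lowest, and Psme4 has the longest transcript of the members. In the fit of all libraries EE against control was −0.20 ± 0.38 SE (edgeR adjusted p = 0.829), and without control 1 and resmetirom 2 Psme4 passed at −0.60 (0.0328), but with offsets for length and GC content it stood at 0.23 (0.734), with the sign flipped. Psme4 was picked out after its values were seen. Psme3, which forms a nuclear activator ring, was higher without overlap in EE, MASH and resmetirom than in controls, at 0.33, 0.11 and 0.17 (edgeR adjusted p = 0.331, 0.851 and 0.57).

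Cell markers were read beside the immune members, since immune cells are rich in them. The 8 markers shared by leukocytes summed to 101, 142 and 129 CPM in controls, 132, 126 and 184 in MASH, 141, 121 and 152 in EE and 270.2, 111 and 124 in resmetirom, with none of the 8 at 0. The highest library was resmetirom 1; Psmb8, Psmb9, Psmb10 and Psme2 were highest in resmetirom 2 and Psme1 in control 1. The 5 B cell markers summed to 16.6, 132 and 104 CPM in resmetirom and 3.40 to 24.6 in the other groups. Ighm, the heavy chain of immunoglobulin M, made up most of this (12.6, 128 and 101 in resmetirom), and the other 4 summed to 3.97, 4.42 and 3.08 in resmetirom, 9.45 in control 1 and 0.871 to 3.63 in the rest, with Ms4a1, among others, at 0 counts in at least 1 library. The 8 T and NK cell markers summed to 1.40 to 11.9 CPM in every library, with Ncr1 at 0 in at least 1. Kupffer cell markers (6 genes) summed to 41.8, 236 and 196, 233, 231 and 275, 328, 259 and 348 and 575, 193 and 282 in controls, MASH, EE and resmetirom. Monocyte and macrophage markers (7 genes) summed to 222, 58.1 and 64.0 CPM in resmetirom, highest in resmetirom 1, and to 28.0 to 106 in the other groups, with Gpnmb at 0 in at least 1 library. The part of these cells in the levels of the immune members was not tested.

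On the scaled levels the constitutive core stood higher in EE than in MASH. All 7 constitutive beta subunits lay higher in EE without overlap, as did Psma5, Psma6 and Psma7 of the alpha ring, and the beta ring's median log2 fold change was 0.30 (0.15 to 0.41). Over all members, 27 of 43 (62.8%) lay higher in EE than in MASH without overlap and 2 lower (4.65%), against 16.7% and 15.5% of all genes. This split depended on scaling: with library totals alone 1 member lay higher and 13 lower, against 3.08% and 41.3% of all genes, whose median moved from −0.02 to −0.32. As a share of all counts the members took 0.327% to 0.340% in MASH and 0.309% to 0.312% in EE, and the scaling factors were 1.15 to 1.22 and 0.960 to 0.993. Hepatocyte markers also stood higher on the scaled levels: all 7 had log2 fold changes above 0 in EE against MASH, with a median of 0.71. Without scaling factors their median was 0.41 (5 of 7 above 0), while that of the constitutive members was −0.11. Alb, Apoa1, Cps1, Fgb and Serpina1c were higher without overlap on the scaled levels, and none of the 7 was at 0 in any library. Their part in the levels of the members was not tested.

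In this comparison libraries with the same replicate number deviated together (correlations of 0.15 to 0.19), and the count of calls depended on the fit. The labels do not pair libraries of different groups. The pairing was read from the same counts that it was then used to test. With the replicate number as a block and only the EE and MASH libraries in the fit, 19 of 43 members (44.2%) passed edgeR, 18 higher and Psmc6 lower, against 20.7% of all genes. The higher ones were Psmb8, Psmb10, Psme1 and Psme2 of the immune members, Psma6, Psmb1, Psmb2, Psmb3, Psmb4, Psmb5 and Psmb6 of the constitutive core, the ATPases Psmc1, Psmc3, Psmc4 and Psmc5, and Psmd2, Psmd9 and Psmd13. The adjusted p ran from 0.00545 (Psmc6) to 0.043 (Psmc1), with Psme2 (0.41; 0.00694), Psme1 (0.48; 0.00693) and Psmb8 (0.44; 0.0111). Without the block the same 6 libraries gave 3 members, Psmb6, Psmd13 and Psme2 (5.63% of all genes), and with length and GC offsets 3 others, Psma2, Psma3 and Psmb1 (5.72%), while the block with all 12 libraries gave 0.

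Among single core subunits, Psma6 of the alpha ring read 72.6, 83.8 and 88.1 CPM in controls, 78.1, 91.8 and 90.1 in MASH, 101, 108 and 104 in EE and 72.0, 92.4 and 76.1 in resmetirom, so that the 3 EE libraries were the highest of the 12 on this scale. EE against resmetirom was 0.38 ± 0.17 SE (edgeR adjusted p = 0.423) and EE against MASH 0.26 ± 0.17 (0.787; 0.0365 with the block in those 2 groups), which became −0.03 without scaling factors. Psmb4, a beta subunit without a catalytic site, read 96.9, 115 and 116, 101, 107 and 100.2, 118, 135 and 132 and 104, 164 and 114 in the same order, with EE above controls and MASH, and EE against MASH was 0.32 ± 0.20 (0.782; 0.0201 with the block). Psma8 read 0.704, 0.338 and 0.406, 0.520, 1.42 and 0.820, 0.462, 0.327 and 0.346 and 0.385, 0.599 and 0.102 CPM, near the floor of what was tested. Its EE libraries were all below MASH, at −1.27 ± 0.60 (0.679), and resmetirom against MASH was −1.38 ± 0.60 (0.311), with overlap through resmetirom 2.

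Psmc6, an ATPase of the regulatory particle, read 82.5, 52.0 and 54.7 CPM in controls, 54.8, 54.1 and 41.9 in MASH, 40.9, 35.7 and 30.4 in EE and 38.2, 34.3 and 23.8 in resmetirom. Every EE and resmetirom library lay below every control and MASH library. The log2 fold change was −0.97 ± 0.24 SE for resmetirom against control (edgeR adjusted p = 0.0521), −0.82 ± 0.24 for EE against control (0.159), −0.64 ± 0.24 for resmetirom against MASH (0.243) and −0.50 ± 0.24 for EE against MASH (0.694; 0.00545 with the block in those 2 groups). DESeq2 called it against control in both treated groups (0.00553 and 0.0446, where 11.1% and 4.41% of all genes passed), and for resmetirom it also passed with the replicate block in all libraries (0.0332, 2.34% of all genes) and with a filter at a mean of 1 CPM (0.0495, 4.14%). Psmc6 has the lowest GC content of the members (37.0%), and with offsets for length and GC content the values were −0.21, −0.03, −0.18 and −0.00 in the order above, none of which passed. The other 5 ATPases had log2 fold changes between 0.18 and 0.29 in EE against MASH on the scaled levels, all higher without overlap; without scaling factors Psmc2 was at −0.11 and Psmc4 at −0.01.

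Psmd8, a lid subunit of the regulatory particle, read 45.4, 87.7 and 84.1 CPM in controls, 97.3, 102 and 101 in MASH, 110.2, 113 and 119.8 in EE and 135, 120.3 and 111 in resmetirom. The groups were stacked: each MASH library lay above each control, and each EE and resmetirom library above each MASH library (for EE the sign flipped to −0.11 without scaling factors). Resmetirom against control was 0.75 ± 0.23 SE (edgeR adjusted p = 0.0902), EE against control 0.66 ± 0.23 (0.209) and MASH against control 0.47 ± 0.23 (0.576). With both outlying libraries left out resmetirom against control was smaller and passed (0.53; 0.0435), and DESeq2 called it in all libraries (0.0178).

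Psmd12, another lid subunit, read 56.9, 57.7 and 62.8 CPM in controls, 58.2, 64.1 and 53.6 in MASH, 62.5, 62.6 and 59.4 in EE and 47.1, 46.3 and 51.0 in resmetirom, whose 3 libraries were the lowest of the 12. EE against resmetirom was 0.35 ± 0.15 SE (edgeR adjusted p = 0.396), resmetirom against MASH −0.28 ± 0.15 (0.41). Psmd9, an assembly chaperone of the ATPase ring, read 20.6, 29.7 and 29.1, 28.9, 29.1 and 31.3, 31.9, 37.9 and 42.9 and 22.4, 26.7 and 35.3 in the same order. EE exceeded controls and MASH without overlap, at 0.50 ± 0.21 against control (0.27). Psmd13, a lid subunit, had 6.13 CPM in control 1 against 54.9 and 56.6 in controls 2 and 3, the deepest shift of any member in that library.

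**Figure D4:**
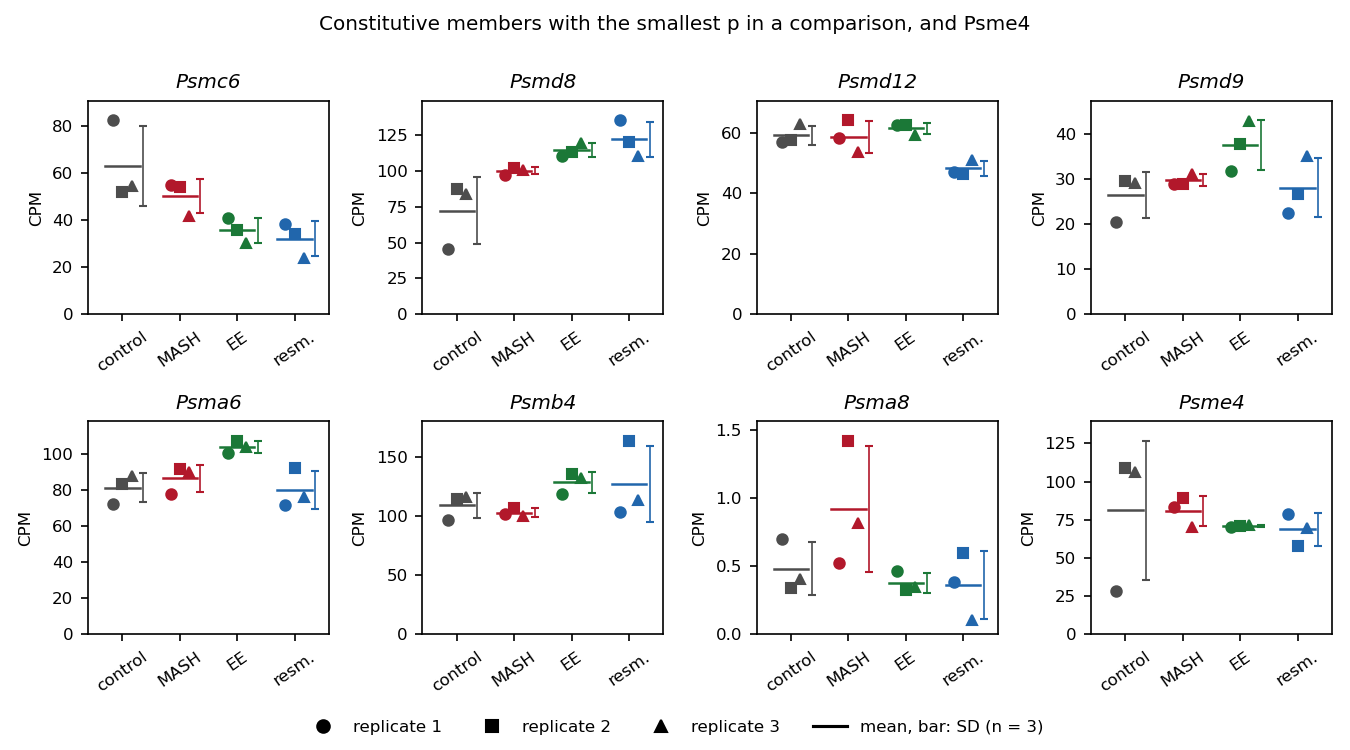
CPM (y axis, from 0) in each library for 7 constitutive members among the 4 smallest p of a comparison, and for Psme4; lines are group means and bars SD over n = 3. Psmc6 was lower in all EE and resmetirom libraries than in controls and MASH (with length and GC offsets its log2 fold changes lay between −0.21 and −0.00), and Psmd12 was lowest in the 3 resmetirom libraries.

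Psme3ip1 and Psmc3ip share the prefix of the family but are not subunits. Psmc3ip, a factor of meiotic recombination, had 3 to 18 counts summed over a group and was not tested. Psme3ip1, which binds Psme3, had log2 fold changes between −0.23 (MASH against control) and 0.46 (resmetirom against MASH), none of which passed; in EE against MASH it was 0.27, higher without overlap. Without control 1 it was at 0.04 in MASH against control, and without resmetirom 2 at 0.15 in resmetirom against MASH.

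In MASH against control the median log2 fold change was −0.22 for the immune and 0.07 for the constitutive members, beside −0.02 for all genes, with 2 of 5 and 20 of 37 above 0 (48.4% of all genes). Without overlap, Psmd7, Psmd8 and Psme3 were higher in MASH and Psma4, Psmb2 and Psmb6 lower, 3 of 43 each way, below the 10.2% and 9.41% of all genes. With library totals alone the split was 17 higher and 0 lower, against 24.8% and 1.97% of all genes. The non-ATPases had a median of 0.29 (8 of 11 above 0) and the beta ring of −0.19 (1 of 7). With both outlying libraries left out the immune median was 0.13, so its sign flipped, and 8 members were higher without overlap and 10 lower, against 17.9% and 20.9% of all genes.

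In EE against MASH all 5 immune members had log2 fold changes above 0, from 0.36 to 0.48, with a median of 0.42. The constitutive median was 0.18 with 31 of 37 above 0, while 47.6% of all genes were. Without scaling factors the medians were 0.12 and −0.11 against −0.32 for all genes, and the constitutive sign flipped. On the scaled levels the ATPases had a median of 0.26, the non-ATPases of 0.17 (−0.15 to 0.43, 6 of 11 higher without overlap), the alpha ring of 0.13 and the assembly chaperones of 0.04.

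In resmetirom against MASH all 5 immune members had log2 fold changes above 0, from 0.55 to 0.96, with a median of 0.83 beside −0.07 for 37 constitutive members and 0.06 for all genes. Of the constitutive members 16 of 37 were above 0, against 54.2% of all genes. The size depended on resmetirom 2: the immune median was 0.35 without it alone and 0.36 without it and control 1. By role, the medians were 0.30 for the beta ring (−0.10 to 0.61), −0.12 for the alpha ring (−1.38 to 0.27), 0.16 for the ATPases (−0.64 to 0.49), −0.13 for the non-ATPases (−0.48 to 0.29) and −0.20 for the assembly chaperones (−0.38 to −0.08). Psmb8, Psmb10, Psmc3, Psmc5, Psmd8 and Psme2 were higher without overlap (6 of 43, 11.6% of all genes). Psma1, Psmc6, Psmd1, Psmd5, Psmd11, Psmd12 and Psmd14 were lower (7 of 43, 12.3% of all genes, and 16 with both libraries left out, then against 17.2%, with 6 higher against 17.4%). The immune members have 52.8% (Psme2) to 56.5% (Psmb10) GC, and shifts rose with GC content in all resmetirom libraries. Over 28 alternatives, offsets for length and GC content among them, the lowest values were 0.49 for Psmb8, 0.16 for Psmb9 and 0.59 for Psmb10. They were 0.28 for Psme1 and 0.35 for Psme2. The part of GC content in these fold changes was not tested.

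In EE against control 18 of 43 members were higher without overlap, among them Psmb8, Psmb9, Psmd8 and Psmd13, against 13.7% of all genes, and Psmc6 was lower (13.5%). The medians were 0.16 for immune and 0.11 for constitutive members, and 0.50 and 0.17 with both outlying libraries left out. Above 0 were 3 of 5 and 25 of 37, against 45.6% of all genes. Without the outlying libraries 30 members were higher without overlap and 4 lower, against 24.6% and 25.6% of all genes, and with library totals alone 10 and 1, against 9.5% and 6.95%. In resmetirom against control 6 were higher, Psmb8, Psmb9, Psmc3, Psmd8, Psmd13 and Psme3, and 2 lower, Psmc6 and Psmd12, against 9.93% and 10.9% of all genes. The medians were 0.74 for the immune and −0.02 for the constitutive members, beside 0.02 for all genes, and with both libraries left out the immune median was 0.74. Above 0 were 4 of 5 and 16 of 37, against 51.3% of all genes. Without the outlying libraries 11 members were higher without overlap and 19 lower, against 25.8% and 28% of all genes, and with library totals alone 7 and 0, against 8.81% and 3.85%. In EE against resmetirom 9 members were higher without overlap and 0 lower, against 8.7% and 9.09%. The higher ones were Psma1, Psma5, Psma6, Psmc1, Psmd1, Psmd2, Psmd3, Psmd10 and Psmd12. Without the outlying libraries 25 were higher and 0 lower, against 17.3% and 18.4%, but with library totals alone the split turned to 1 higher and 4 lower, against 4.74% and 7.6%. Above 0 were 0 of 5 immune and 29 of 37 constitutive members, against 42.4% of all genes. The immune median was −0.39 and became 0.05 with both libraries left out, and the constitutive median was 0.18.

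**Figure D5:**
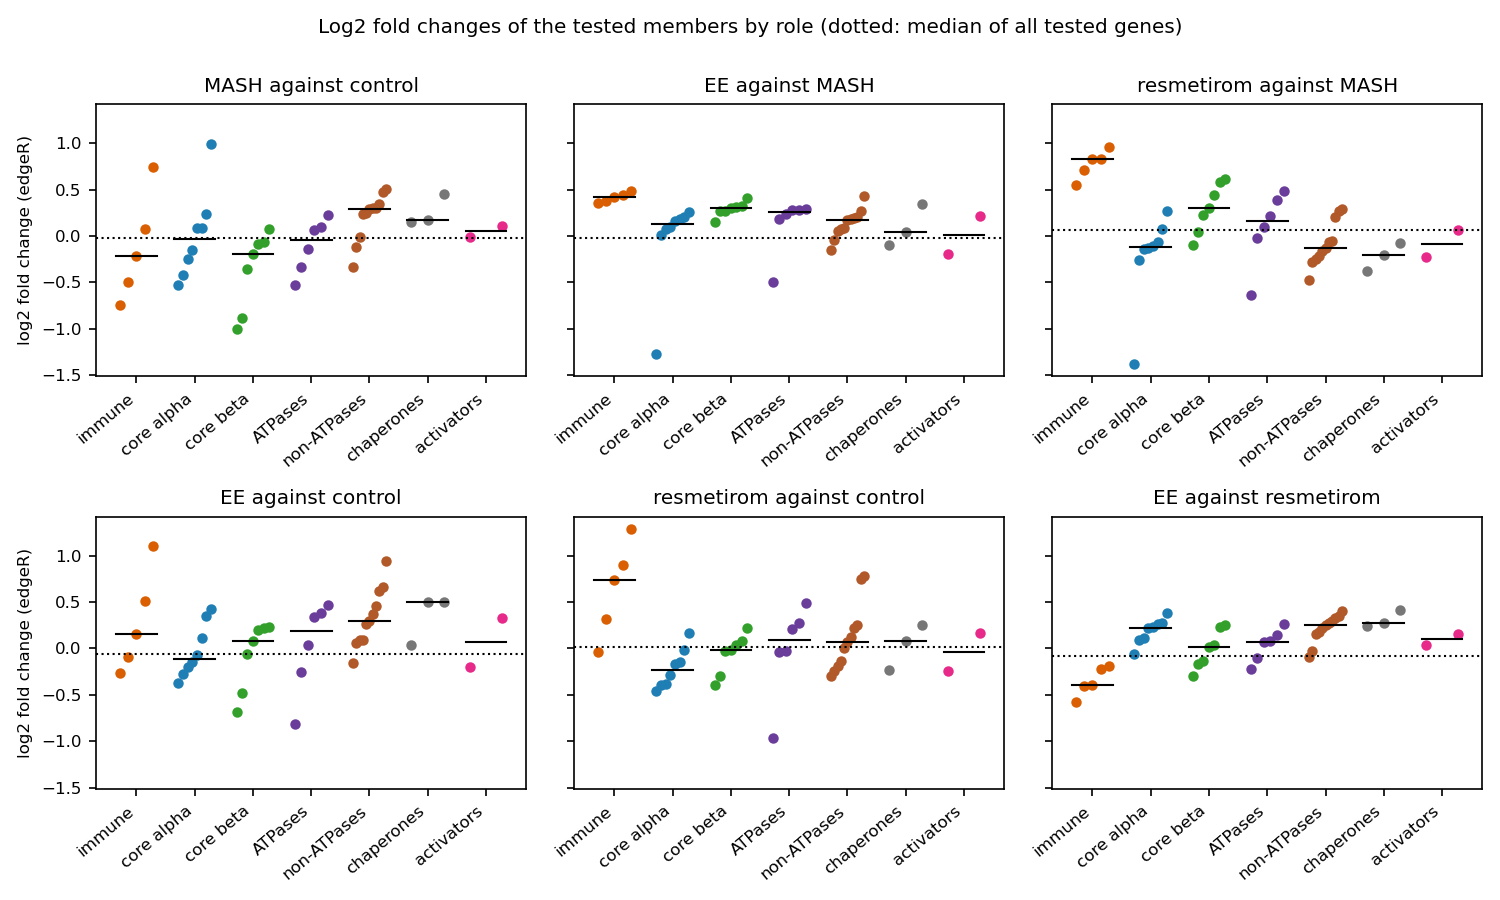
Log2 fold change (edgeR, y axis) of each tested member by role in the 6 comparisons; black lines are role medians and the dotted line is the median of all tested genes. In resmetirom against MASH the immune members lay between 0.55 and 0.96 (0.36 at the median without control 1 and resmetirom 2), and in EE against MASH between 0.36 and 0.48 (median 0.12 without scaling factors).

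The genes that serve the proteasome were read from 5 lists. Of 4 subunits and deubiquitinases of the regulatory particle without the prefix, 0 passed edgeR in any comparison (0 to 2 at an unadjusted p below 0.05). Uchl5 passed, lower, by DESeq2 in resmetirom against control, where 11.1% of all genes passed. It also passed, lower, with the replicate block in the EE and MASH libraries, where 20.7% passed. Uchl5, a deubiquitinase, read 11.4, 13.6 and 13.7 CPM in controls, 11.5, 13.1 and 10.2 in MASH, 9.44, 9.37 and 7.50 in EE and 9.44, 7.12 and 6.00 in resmetirom. It lay lower in both treated groups than in controls and MASH without overlap, at −0.78 ± 0.21 SE for resmetirom against control (edgeR adjusted p = 0.0669). Usp14, which trims ubiquitin chains, was at −0.54 ± 0.20 in resmetirom against MASH (0.238), Sem1, a small lid subunit, at −0.81 in MASH against control (0.01 without control 1) and Adrm1, a ubiquitin receptor, at 0.11 in EE against control.

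Of 8 assembly factors and inhibitors 0 passed (0 also at an unadjusted p below 0.05 and by DESeq2 and limma voom). With the replicate block in the EE and MASH libraries 2 of 8 passed, against 20.7% of all genes: Pomp and Psmg1, both higher in EE. The chaperones of alpha ring assembly, Psmg1, Psmg2 and Psmg3, were each higher in EE than in MASH without overlap, with Psmg1 at 0.44 ± 0.25 SE (edgeR adjusted p = 0.755) and Psmg2 at 0.34. Against control, Akirin2, which brings proteasomes into the nucleus, was at −0.65 in MASH, −0.58 in EE and −0.58 in resmetirom, and Psmg4 and Psmg3 were at −0.63 and −0.23 in MASH. These values rested on control 1: without it Akirin2 was at −0.12, −0.05 and −0.07, Psmg4 at 0.30, with the sign flipped, and Psmg3 at −0.03. Psmf1, an inhibitor of the core, was at 0.40 in EE and 0.37 in resmetirom against control, and Ecpas, an adaptor of the particle, at −0.48 in resmetirom (−0.24 without resmetirom 2).

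Of 14 genes of control and shuttling 0 passed (0 to 2 at an unadjusted p below 0.05). DESeq2 called 1, in resmetirom against control, where 11.1% of all genes passed. With the replicate block in the EE and MASH libraries 5 of 14 passed, against 20.7% of all genes. Of these 5, 2 were higher in EE and the rest lower, Nfe2l2 (edgeR adjusted p = 0.00652), Ddi2, Ngly1 and Zfand5 among them. Zfand5, a stimulator of the proteasome, was at −0.85 ± 0.29 SE in EE against control (edgeR adjusted p = 0.192; −0.56 without control 1), and Ngly1, which activates Nfe2l1, at −0.72 ± 0.24 in resmetirom against MASH (0.186). Rad23b, a shuttle for ubiquitin-tagged proteins, was at −0.28 in resmetirom against MASH. Nfe2l2 was at −0.43 in EE against MASH, Zfand2a at 0.65 in EE against control (0.30 without control 1), Vcp, an unfoldase, at 0.38 in MASH against control (0.02 without control 1) and Ddi2, the protease of Nfe2l1, at 0.52 in EE against resmetirom. Nfe2l1 itself, the transcription factor of constitutive subunits, was picked out after its values were seen and lay between −0.22 and 0.19 in the 6 comparisons (−0.07 in resmetirom against MASH without resmetirom 2 and 0.10 in MASH against control without control 1).

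Of 5 ubiquitin genes 0 passed (0 to 2 at an unadjusted p below 0.05, and 0 by DESeq2 and limma voom). With the replicate block in the EE and MASH libraries 4 of 5 passed, against 20.7% of all genes. All 4 were higher in EE, Ubb (edgeR adjusted p = 0.00353) and Uba1 among them. Ubb, which encodes chains of ubiquitin, stood at 437 ± 13.3 CPM in MASH, 668 ± 53.0 in EE and 716 ± 247 in resmetirom (SD, n = 3). Both treated groups lay above MASH without overlap, at 0.61 ± 0.30 SE (edgeR adjusted p = 0.696) and 0.71 ± 0.30 (0.297; the fold change was 0.39 without resmetirom 2). Uba1, the first enzyme of tagging, was at 0.64 in EE and 0.61 in resmetirom against control, and at 0.32 and 0.29 without control 1. Rps27a, ubiquitin fused to a ribosomal protein, was at −0.95 in MASH against control, with control 1 the highest library at 268 CPM (−0.50 without it).

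Of 21 genes of the interferon gamma axis and MHC class I antigen processing, 2 passed edgeR, both higher in resmetirom against control, where 3.16% of all genes passed: Tap1, given above, and its partner Tap2. Tap2 read 23.2, 21.7 and 16.0 CPM in controls and 34.7, 38.7 and 32.2 in resmetirom (0.79 ± 0.19 SE; adjusted p = 0.0478). The call of Tap2 was lost in 22 of 28 alternatives, among them 11 of the 12 that leave out 1 library, and that of Tap1 in 6 of 28, among them the fit without control 3. In the other 5 comparisons 0 of the 21 passed edgeR, with 2 to 5 at an unadjusted p below 0.05. DESeq2 called 6 of 21 in resmetirom against control, where 11.1% of all genes passed, and 3 in EE against control, where 4.41% passed. It called 1 in MASH against control (Tap1) and 2 in resmetirom against MASH. Its share over all genes in those comparisons is not given here, so these counts cannot be set against a background. All of the DESeq2 calls were higher. With the replicate block in the EE and MASH libraries 4 of 21 passed, against 20.7% of all genes. These were Irf9, Pdia3, Calr and H2-T23, all higher in EE. Tapbp, which bridges the transporter and class I molecules, was at 0.78 ± 0.19 in resmetirom against control (0.0514), and the class I molecules H2-T23 and H2-D1 at 0.89 and 0.65 in resmetirom against MASH (0.0949 and 0.231). H2-Q4, of the same family, was at −0.71 in EE against resmetirom. Ifngr2, of interferon signalling, was at 0.68 in MASH against control (0.46 without control 1), and Irf9 and Pdia3, a chaperone of class I loading, were at 0.53 and 0.41 in EE against MASH. The list's median was 0.58 in resmetirom against control, with 14 of 21 above 0, and 0.17 in EE against MASH, with 16 of 21 above 0.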

How the data were processed

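Poly(A) RNA from 12 liver libraries was read in stranded pairs, per the labels' protocols. The authors deposited expected counts per gene, 1 column per library, of which 91.5% to 93.3% were whole numbers. fastp and GRCm39 are named in the submitters' processing notes; the aligner, the counter, the annotation release and whether counting used strand were not given in the sources used here. Expected counts were rounded, and 13988 genes that passed edgeR's filter on low counts were fitted by group (edgeR 4.0.16 in R 4.3.3, quasi-likelihood, robust, TMM scaling, Benjamini-Hochberg adjustment over all of them, threshold 0.05). At 17297865 to 21793326 counts a library, the biological coefficient of variation was 0.334 with 8 residual degrees of freedom. Scripts were tested on simulated data.

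Symbols matched 22603 of 28036 gene IDs. Transcript lengths and GC content came from GENCODE M21 (GRCm38) and serve as properties only, since the counts use another build. Ratios of subunits used counts plus 0.5. Motifs were searched on both strands of windows of 300 bases.

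Members and lists were chosen with earlier results of these data known. Values per library are given for the 5 immune members, Psmb5, Psmb6, Psmb7 and members among the 4 smallest p of a comparison; of each pathway list the 3 smallest p of a comparison are named. Same-numbered EE and MASH libraries deviated together (correlations 0.15, 0.16 and 0.19), so their numbers were taken as pairs in alternative fits. The labels give no such pairs, and the choice came from the same counts that were tested. In the other 5 comparisons correlations ran from −0.34 to 0.26. The replicate block was fitted there too as an alternative, without such a basis. In resmetirom against control, where Psmc6 passed with it, the correlations were −0.29, −0.34 and 0.26. In EE against resmetirom each EE library also correlated best with its own number, at 0.02, 0.07 and 0.11.

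Alternatives were DESeq2 1.42.0, limma 3.58.1 voom, other scalings, filters, offsets for length and GC content (loess, span 0.4), a replicate block, mitochondrial genes removed, only the compared groups and libraries left out. Voom with quality weights, library totals without scaling factors, offsets in only the compared groups and counts of members without overlap under other scalings or libraries were added after seeing the data. Figures were drawn with matplotlib 3.10.9. The values of some single genes of the pathway and marker lists are not reported here, and the counts, medians and sums cover the whole lists.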

Additional observations from a re-analysis of the deposited data

Results flagged for a closer look

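Psmd1 and Psmd12, a base and a lid subunit of the regulatory particle, were picked out because all 3 EE libraries lay above the MASH mean and all 3 resmetirom libraries below it. For Psmd12 EE against MASH was 0.07 and resmetirom against MASH −0.28, and the test of the difference, EE against resmetirom, gave 0.35 ± 0.15 SE (edgeR adjusted p = 0.396). For Psmd1 the values were 0.05 and −0.25, and the difference was 0.30 ± 0.23 (adjusted p = 0.687). Neither difference passed, and both contrasts share the MASH libraries.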

How the results depend on the processing

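With no member called by edgeR in all 12 libraries, counts of called members rose under several settings. For EE against MASH they were 3 in only the compared groups, 3 there with length and GC offsets, 3 by voom with quality weights and 19 with the replicate block in those groups. For EE against control they were 1 by DESeq2, 1 with no filter, 7 by voom with quality weights and 3 without both outlying libraries. For resmetirom against control they were 4 by DESeq2, 1 with no filter, 1 with a filter at a mean of 1 CPM, 1 with the replicate block in all libraries, 7 by voom with quality weights and 5 without both outlying libraries. Leaving out 1 library gave 0 to 2 there (2 without control 1, 1 without resmetirom 1) and 0 elsewhere. Voom with quality weights called 1 for MASH against control and 4 for resmetirom against MASH. The replicate block changed no other count of calls.

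Without scaling factors the immune and constitutive medians were 0.32 and 0.40 for MASH against control, 0.12 and −0.11 for EE against MASH and 0.46 and −0.27 for resmetirom against MASH. That setting moved all genes, so these medians are not changes of the members alone. In it, MASH against control had 24.8% of all genes higher without overlap and 1.97% lower, and EE against MASH 3.08% and 41.3%. For resmetirom against MASH such shares are not given here. Without both outlying libraries the immune median was 0.36 for resmetirom against MASH and 0.05 for EE against resmetirom. The constitutive median of EE against control was 0.25 with offsets, 0.26 with the block and offsets and 0.24 with offsets in only the compared groups. Leaving out 1 library at a time, immune medians ran from −0.39 to 0.13 for MASH against control, 0.37 to 0.55 for EE against MASH, 0.35 to 0.99 for resmetirom against MASH, 0.00 to 0.51 for EE against control, 0.40 to 1.08 for resmetirom against control and −0.55 to 0.07 for EE against resmetirom. Constitutive medians ran, in the same order, from 0.01 to 0.16, 0.18 to 0.21, −0.10 to −0.00, 0.11 to 0.26, −0.17 to 0.05 and 0.13 to 0.28.

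Over the 105 pairs of a gene and a comparison whose fold change is named, which hold members and genes of the pathway lists, the sign reversed in 74 of 2938 recalculations, in 27 pairs, none of them past the threshold. For MASH against control, Psmb8 was −0.07 without control 3 and −0.04 without MASH 3, Psmb10 was 0.03 by voom with quality weights, 0.32 without scaling factors and 0.13 without control 1 or both outlying libraries, and Psme2 was 0.08 without scaling factors. For EE against control, voom with quality weights, no scaling factors, both outlying libraries left out and control 1 left out gave Psme1 0.18, 0.02, 0.19 and 0.21 and Psme2 0.37, 0.20, 0.37 and 0.39, and Psme2 was 0.01 with no filter and with the block in only the compared groups. For resmetirom against control Psme1 was 0.01 with no filter, 0.18 by voom with quality weights, 0.19 without scaling factors, 0.42 without control 1, 0.19 without resmetirom 1 and 0.09 without resmetirom 3, and Psme2 was −0.15 without resmetirom 2. For EE against resmetirom Psmb9 was 0.02 with offsets, 0.03 with the block and offsets, 0.02 by voom with quality weights, 0.01 with offsets in only the compared groups, and, without both outlying libraries and without resmetirom 2 alone, Psmb9 was 0.18 and 0.21, Psme1 0.19 and 0.21 and Psme2 0.05 and 0.07. Over all left-out libraries Psmb8 ran up to 0.27 in MASH against control, Psme1 and Psme2 down to −0.47 and −0.31 in EE against control, Psme1 down to −0.46 and Psme2 up to 0.78 in resmetirom against control, and Psme1 and Psme2 down to −0.44 and −0.64 in EE against resmetirom. Without scaling factors EE against MASH was −0.01 for Psmb5, −0.15 for Psmb7, −0.03 for Psma6, −0.03 for Psme3ip1, −0.11 for Psmc2, −0.01 for Psmc4, −0.11 for Psmd8, −0.25 for Psmd1 and −0.23 for Psmd12. In MASH against control, Sem1 was 0.01 without both outlying libraries and ran from −1.10 to 0.01 over the left-out libraries, Psmg4 was 0.30 by voom with quality weights, 0.08 without scaling factors and 0.31 without both libraries and ran from −0.95 to 0.30, Psmg3 was 0.24 without scaling factors, Psme3 was −0.01 with offsets, with the block and offsets and with offsets in only the compared groups, and Psme3ip1 was 0.27 without scaling factors and 0.04 without both libraries and ran from −0.37 to 0.04. In EE against control, Psmb5 was 0.02 with no filter and with the block in only the compared groups, 0.01 with offsets and with the block and offsets, 0.35 by voom with quality weights, 0.21 without scaling factors and 0.37 without both libraries and ran from −0.24 to 0.38, and Psmb6 was 0.28 by voom with quality weights and 0.31 without both libraries and ran from −0.75 to 0.33. Psme4 was there 0.07 by voom, 0.23 with offsets, 0.30 with the block and offsets, 0.01 with the block and 0.31 with offsets in only the compared groups, and ran from −0.59 to 0.08. The cause of these changes was not tested. All 48 recalculated group means of the subunit ratios moved by less than 1 SD. With 3 libraries in a group, leaving out 1 cannot move a mean that far, so those recalculations do not show how stable the ratios are.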
